A study of Mus musculus with 4 samples.

Results

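Cytochrome P450 enzymes are haem proteins that insert an oxygen atom into foreign compounds, fatty acids, sterols and vitamins. Their genes were taken from the array by symbol, as every gene with a name of the form Cyp, a family number, a subfamily letter and a gene number, on a probe set annotated with 1 gene. This gave 72 P450 genes of 18193 genes on the array, measured by 95 probe sets. Another 4 P450 probe sets carried several symbols and named no gene. The symbols Cyp51, Tbxas1 and Ptgis, which also belong to P450 enzymes, lie outside that form and are given separately.

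RNA came from whole lungs of B6/J mice, with 2 IKKa floxed and 2 wild type samples and 1 array each. Cre recombinase had been delivered by adenovirus into the airways of mice of both genotypes, through the trachea, with collection of lungs 4 months afterwards. IKKα is a kinase of the NF-κB pathway, and Cre deletes DNA flanked by loxP sites, here only in cells the virus reached. The labels name neither those cells nor the animals behind the arrays. The p-values therefore measure the spread between these 4 arrays, which may be technical. The transcript of the targeted gene is not analysed here, and the deletion itself was not examined.

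Most P450 enzymes sit in the endoplasmic reticulum and receive electrons from P450 reductase and cytochrome b5, while some work in mitochondria with ferredoxin. The families numbered from 1 to 3 mainly oxidise drugs and pollutants, family 4 hydroxylates fatty acids and eicosanoids, and most higher numbers act on sterols, steroids, retinoic acid or vitamin D. In mouse lung the foreign compound enzymes are known above all from club cells, the secretory cells of the bronchioles, where they turn inhaled chemicals such as naphthalene into reactive products.

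The values of each array were intensities scaled by the authors to a common trimmed mean of 150.001, and the array medians differed by at most 0.0646 on the log2 scale. Lung markers were present on all arrays. Sftpc, a surfactant gene of type 2 alveolar cells, read 13618 and 10831 in IKKa floxed lungs and 9204 and 8743 in wild type lungs. Xist, a marker of female tissue, read 4246 and 4629 in IKKa floxed and 31.8 and 22.9 in wild type lungs, and the Y-linked gene Kdm5d read 0.711 and 0.418 in IKKa floxed and 109 and 130 in wild type lungs. Genotype and this sex pattern therefore cannot be told apart in any comparison here. The ratio of 3′ to 5′ signal, used to judge RNA quality, was 1.44 and 1.68 for Gapdh in IKKa floxed lungs and 1.18 and 1.10 in wild type lungs. For actin it was 2.67 and 2.77 in IKKa floxed and 2.65 and 2.46 in wild type lungs. The Gapdh ratios did not overlap between the groups, so genotype and this difference cannot be told apart either.

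The sequences upstream of 4 P450 genes are shown, and none of these genes passed the main test given below. Cyp2f2 gave the highest signal, Cyp2e1 and Cyp4f39 had the largest tested log2 differences in each direction, and Cyp1a1 is the classical target of the aryl hydrocarbon receptor. Each is the 250 bases before the annotated start, 5′ to 3′ on the gene's strand, from RefSeq on GRCm38.p6. Capitals mark matches on either strand to TATAAA, the core of the element that positions transcription starts. They also mark GCGTG, the core bound by the aryl hydrocarbon receptor.
Cyp2f2, chr7:27119705-27119954, plus strand: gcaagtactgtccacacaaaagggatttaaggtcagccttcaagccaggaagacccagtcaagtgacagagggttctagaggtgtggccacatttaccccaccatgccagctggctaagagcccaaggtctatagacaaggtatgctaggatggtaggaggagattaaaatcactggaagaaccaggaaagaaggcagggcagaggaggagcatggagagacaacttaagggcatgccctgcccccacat
Cyp2e1, chr7:140763569-140763818, plus strand: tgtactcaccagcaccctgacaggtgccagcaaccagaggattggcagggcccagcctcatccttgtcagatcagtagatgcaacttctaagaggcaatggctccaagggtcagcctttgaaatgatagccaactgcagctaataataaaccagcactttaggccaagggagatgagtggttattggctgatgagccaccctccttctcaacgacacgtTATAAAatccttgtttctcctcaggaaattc
Cyp4f39, chr17:32452473-32452722, plus strand: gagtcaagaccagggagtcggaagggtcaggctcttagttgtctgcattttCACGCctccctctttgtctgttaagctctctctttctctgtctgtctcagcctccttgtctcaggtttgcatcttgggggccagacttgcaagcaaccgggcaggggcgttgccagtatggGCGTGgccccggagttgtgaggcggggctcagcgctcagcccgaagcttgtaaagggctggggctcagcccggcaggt
Cyp1a1, chr9:57697363-57697612, plus strand: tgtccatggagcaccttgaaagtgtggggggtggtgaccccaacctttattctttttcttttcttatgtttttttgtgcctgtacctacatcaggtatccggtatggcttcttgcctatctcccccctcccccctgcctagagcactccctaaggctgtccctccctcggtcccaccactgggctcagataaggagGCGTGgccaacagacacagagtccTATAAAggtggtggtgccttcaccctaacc
A TATAAA match began 31 bases before the start of Cyp2e1 and 30 bases before that of Cyp1a1. Cyp1a1 also held GCGTG at 54 bases, and Cyp4f39 held it at 78 bases and, on the other strand, at 199 bases. Neither motif was found in the window of Cyp2f2. RefSeq windows were matched for 51 of the P450 genes, and 19 of their 58 windows held TATAAA (32.8%), against 12.4% of all 32851 windows of this length. GCGTG stood in 13 of the 58 (22.4%), against 28.2% of all windows. The motifs do not overlap each other, and a match describes letters and not binding.

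Few P450 genes gave more than low signal in lung. After genes under the 30th percentile of mean level (an intensity of 20.4) were left out, 24 of the 72 P450 genes were tested and 48 (66.7%) were not. The mean intensities of those 48 ran from 0.946 to 21.6 with a median of 7.55. The filter acts on the mean of log2 values, so Cyp2b9, uneven between arrays, fell below it with a linear mean of 21.6. No detection calls were used, so such values mean low signal and not absence. Only 6 genes averaged over 500, namely Cyp2f2, Cyp4b1, Cyp2b10, Cyp2s1, Cyp20a1 and Cyp4v3. Probe sets differ in how strongly they bind, so this order ranks probe set signals and not numbers of transcripts.

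Cyp2f2, the naphthalene-activating enzyme of mouse club cells, averaged 10281 over the 4 arrays and stood in the top 0.121% of all genes by signal. Cyp4b1, which activates the lung toxin ipomeanol, averaged 5816. Cyp2b10, known in mouse liver as the phenobarbital-inducible P450, averaged 3853. The next in order, the epithelial enzyme Cyp2s1, averaged 802, and Cyp20a1, whose substrate is unknown, averaged 751. The first 3 therefore stood apart from all other P450 genes.

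**Figure D1:**
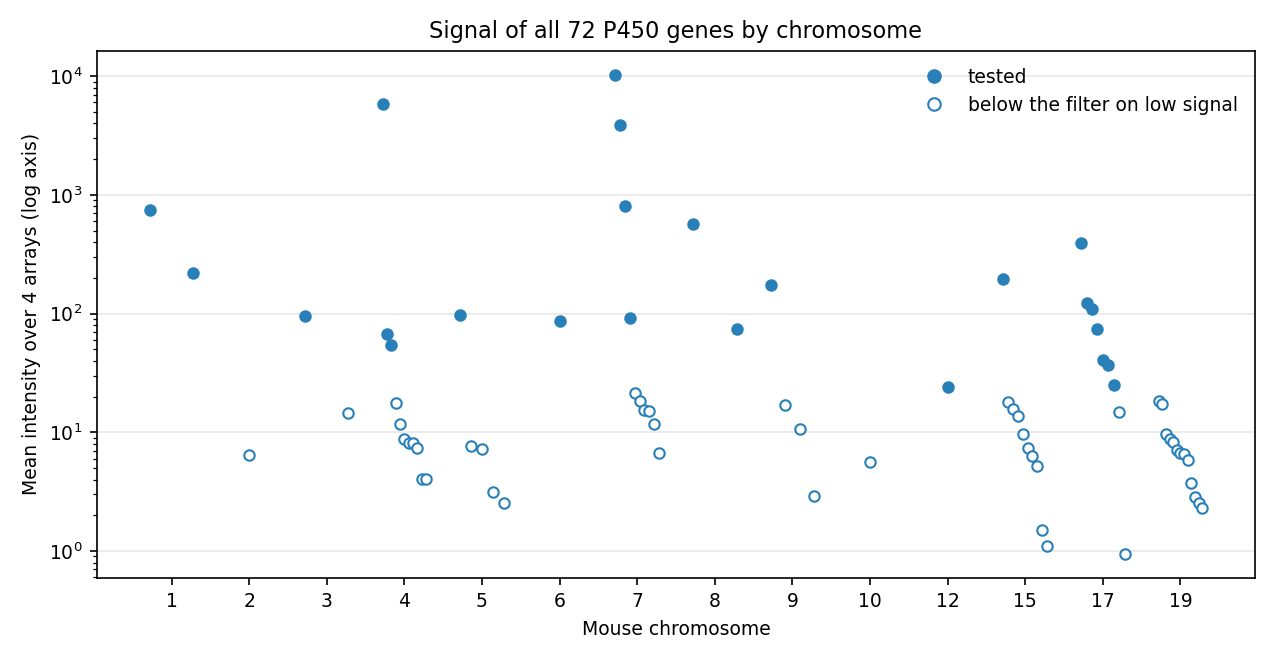
Mean intensity over the 4 arrays (log axis) of each of the 72 P450 genes, by mouse chromosome, filled where the gene was tested and open where it fell below the filter on low signal. Chromosome 7 holds the highest signal, and all 13 genes on chromosome 19 are open.

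Signal differed widely among the P450 genes of a chromosome. On chromosome 7, 4 of 10 genes were tested, and mean intensities ran from 6.74 for Cyp2b19 to 10281 for Cyp2f2. On chromosome 4, 3 of 11 were tested, and means ran from 4.03 for Cyp2j5 to 5816 for Cyp4b1. On chromosome 19, home of the Cyp2c genes, none of 13 was tested, and the highest averaged 18.4. On chromosome 15, 1 of 10 was tested, Cyp2d22 with a mean of 195, while the other Cyp2d genes and the aldosterone and corticosterone enzymes Cyp11b2 and Cyp11b1 fell below the filter. On chromosome 5, Cyp3a13 (96.9) was the 1 tested gene of 5. On chromosome 17, 7 of 9 genes were tested, among them Cyp4f13, Cyp4f15, Cyp4f16 and Cyp4f39. By family number, family 2 had 7 of 35 genes tested, family 4 had 7 of 13, family 1 had 2 of 3 and family 3 had 1 of 5.

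**Figure D2:**
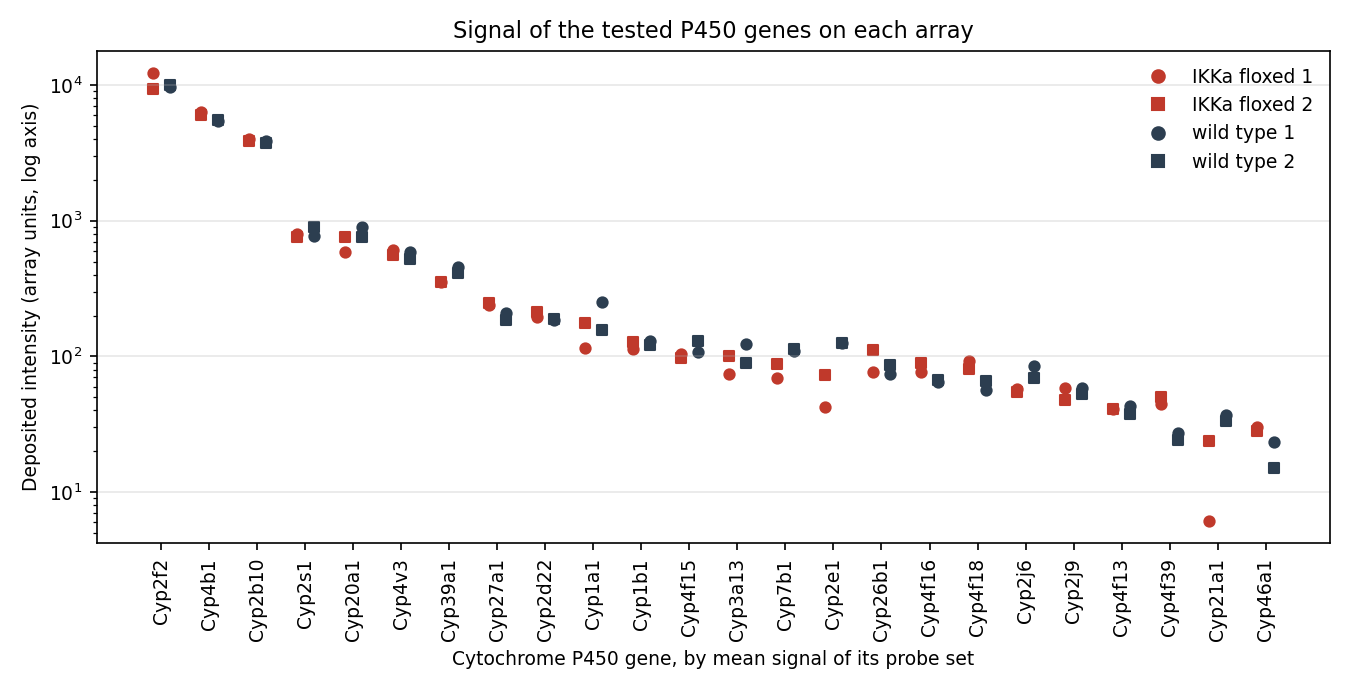
Deposited intensity (log axis) of the 24 tested P450 genes on each array, with IKKa floxed arrays in red and wild type arrays in dark blue, in order of mean signal. The first 3 genes lie at 3735 or more on all arrays, and the IKKa floxed points of Cyp2e1 (42.2 and 72.7) lie below both wild type points (126 and 126).

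No P450 gene passed the test between genotypes. Intensities were compared as log2(intensity + 16) with limma, and folds below are on that scale, which understates the change of low genes. The p-values were adjusted over all 12735 genes tested, of which 1.73% passed a threshold of 0.05 (0.997% higher and 0.730% lower). Of the 24 P450 genes, 0 passed in either direction. By limma without adjustment, 8 had p under 0.05, 4 higher and 4 lower (33.3%), against 14.3% of all genes (7.16% higher and 7.13% lower). These 8 include Cyp21a1 and Cyp46a1, which reached the filter only through the group where each was higher. The groups did not overlap for 13 of the 24 (54.2%), against 45.7% of all genes. A pseudocount of 64, a filter at the 50th percentile and an intensity trend with a robust prior each brought 1 P450 gene past the threshold, Cyp2e1, with 2.82%, 2.20% and 3.02% of all genes called. Without IKKa floxed replicate 2 there were 2, Cyp2e1 and Cyp21a1, with 1.95% of all genes called.

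The tested P450 genes were spread evenly around 0, with 12 higher and 12 lower in direction. Their median log2 difference, IKKa floxed minus wild type, was -0.02, against 1.67e-05 for all genes. Their median absolute difference was 0.26, against 0.14 for all genes. The 95% interval lay within a 2-fold change in either direction for 21 of the 24 (87.5%), against 95.5% of all genes. The 3 exceptions were Cyp1a1, Cyp2e1 and Cyp21a1. These counts cover only genes whose mean level over all arrays reached the filter, and genes are not replicates. They include Cyp21a1 and Cyp46a1, which reached it only through the group where each was higher.

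**Figure D3:**
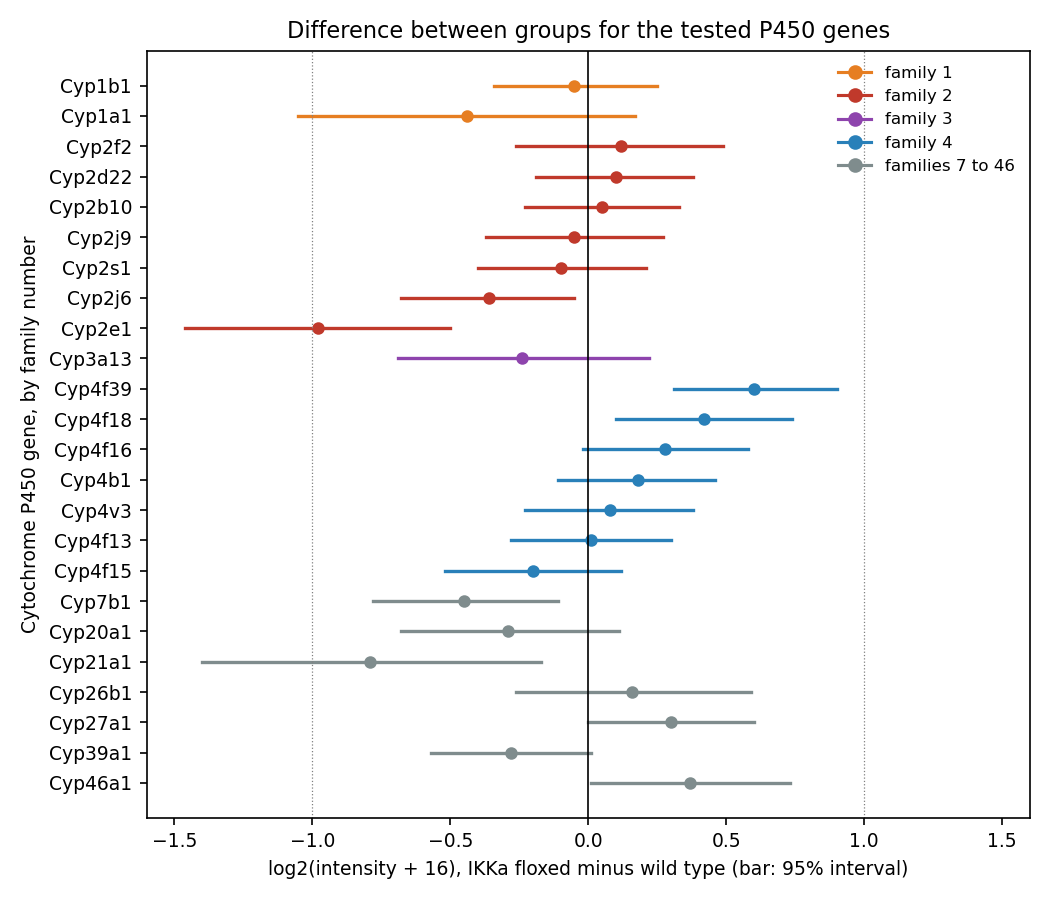
Difference in log2(intensity + 16), IKKa floxed minus wild type, of the 24 tested P450 genes by family number, with 95% intervals from limma as bars and dotted lines at a 2-fold change. Cyp2e1 lies furthest to the left at -0.98 and Cyp4f39 furthest to the right at 0.60.

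In family 1, Cyp1a1, which oxidises polycyclic aromatic hydrocarbons, read 115 and 175 in IKKa floxed lungs, against 252 and 157 in wild type lungs. The groups overlapped, and the arrays of each group lay far apart (log2 difference -0.44 ± 0.26 SE, 95% interval -1.05 to 0.17, limma adjusted p = 0.504). The difference became -0.13 without wild type replicate 1, -0.17 without IKKa floxed replicate 1, -0.72 without IKKa floxed replicate 2 and -0.76 without wild type replicate 2. Cyp1b1, which oxidises oestradiol as well as aromatic hydrocarbons, read 113 and 128 in IKKa floxed and 129 and 121 in wild type lungs. Its groups overlapped too, with a log2 difference of -0.05 and an interval from -0.34 to 0.25. The remaining gene, Cyp1a2, averaged 2.88 and was not tested.

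Both Cyp1a1 and Cyp1b1 are transcribed under the aryl hydrocarbon receptor. The receptor gene Ahr read 901 and 968 in IKKa floxed lungs and 1234 and 1173 in wild type lungs, without overlap (log2 difference -0.36 ± 0.12 SE, adjusted p = 0.241), and its other probe set stood at 0.20. Its partner Arnt read 426 and 442 in IKKa floxed and 364 and 369 in wild type lungs (0.23 ± 0.12 SE, adjusted p = 0.434). Its 5 probe sets ran from -0.18 to 0.23. Of 14 tested genes in the list of xenobiotic and lipid sensing receptors, 0 passed, 8 lay above 0 and 6 below, and their median was 0.04. The liver sensors Nr1i2 and Nr1i3, the pregnane X and constitutive androstane receptors, fell below the filter.

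In family 2, the club cell enzymes differed little between the groups. Cyp2f2 read 12185 and 9315 in IKKa floxed lungs and 9576 and 10048 in wild type lungs. The IKKa floxed arrays enclosed both wild type arrays, and the log2 difference of 0.12 ± 0.16 SE had an interval from 0.84-fold to 1.41-fold (limma adjusted p = 0.789). Its direction turned to -0.12 with quantile normalization. Cyp2b10 read 4003 and 3834 in IKKa floxed and 3842 and 3735 in wild type lungs, with an interval from 0.85-fold to 1.25-fold. Its 3 probe sets ran from -0.07 to 0.05, and the difference turned to -0.09 with quantile normalization. Probe sets of close P450 relatives can share transcripts, and the Cyp2b10 probe set used has the suffix that marks this. Cyp2s1 read 791 and 758 in IKKa floxed and 770 and 890 in wild type lungs (interval 0.76-fold to 1.16-fold).

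Cyp2e1, which oxidises ethanol and small solvents and is best known from liver, showed the largest log2 difference of any tested P450 gene with the pseudocount of 16, while with a pseudocount of 1 Cyp21a1 differed more (-1.44, against -1.17 for Cyp2e1). It read 42.2 and 72.7 in IKKa floxed lungs, against 126 and 126 in wild type lungs. The groups did not overlap, and the IKKa floxed arrays differed far more from each other than the wild type arrays did. The means were 57.4 ± 21.6 in IKKa floxed and 126 ± 0.441 in wild type lungs (SD, n = 2 each; log2 difference -0.98 ± 0.20 SE, limma adjusted p = 0.0778). It passed with a pseudocount of 64 (limma adjusted p = 0.0207), with genes under the 50th percentile left out (0.0436), with an intensity trend and robust prior (0.0236) and without IKKa floxed replicate 2 (0.00924). Over its 14 alternatives the difference ran from -1.29 to -0.66 and the adjusted p from 0.00924 to 0.217.

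Cyp2e1 is also known from fat, and genes of adipocytes were lower on the same arrays. Of 7 tested adipocyte markers 4 fell, against 0.730% of all genes, and the list's median log2 difference was -0.91. Adipoq, the adipocyte hormone adiponectin, read 18.6 and 14.5 in IKKa floxed lungs and 119 and 69.8 in wild type lungs (limma adjusted p = 0.0145). Lpl, a lipase of several lung cell types as well as fat, was the 1 marker above 0. The summed intensity of 10 measured adipocyte markers, which Lpl dominated, was 3134 and 3200 in IKKa floxed and 3525 and 3206 in wild type lungs. Their part in the Cyp2e1 difference was not tested. Hepatocyte markers gave low signal on all arrays, with 9 of 10 measured below the filter and summed intensities of 122 and 114 in IKKa floxed and 89.3 and 109 in wild type lungs.

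The other tested genes of family 2 differed less. Cyp2j6, of a subfamily that makes epoxides of arachidonic acid, read 58.0 and 54.4 in IKKa floxed lungs and 84.5 and 69.7 in wild type lungs. The groups did not overlap (log2 difference -0.36 ± 0.13 SE, limma adjusted p = 0.284), and its other probe set stood at -0.31. Its relative Cyp2j9 read 58.7 and 47.9 in IKKa floxed and 58.4 and 53.0 in wild type lungs (interval 0.77-fold to 1.20-fold). Cyp2d22, of the drug-oxidising Cyp2d subfamily, read 194 and 211 in IKKa floxed and 187 and 189 in wild type lungs (interval 0.88-fold to 1.30-fold). In family 3, Cyp3a13 read 74.1 and 101 in IKKa floxed and 123 and 89.0 in wild type lungs, with overlap (log2 difference -0.24 ± 0.19 SE, and -0.44 to -0.03 with 1 array left out).

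In family 4, 6 of 7 tested genes lay above 0 with a median log2 difference of 0.18, and none passed. With the mean of all probe sets this became 4 of 7 with a median of 0.01, and with quantile normalization 6 of 7 with a median of 0.09. It was also 4 of 7 without wild type replicate 2 and 5 of 7 with the probe sets that can share transcripts left out. Cyp4f39, whose human counterpart hydroxylates very long fatty acids of the skin barrier, read 44.6 and 50.4 in IKKa floxed lungs and 27.3 and 24.4 in wild type lungs. The groups did not overlap (log2 difference 0.60 ± 0.12 SE, interval 0.31 to 0.90), with means of 47.5 ± 4.1 in IKKa floxed and 25.9 ± 2.11 in wild type lungs (SD, n = 2 each). At this low signal the added 16 understates the ratio of the intensities. The limma adjusted p was 0.0792 and ran from 0.062 to 0.35 over 13 alternatives. Cyp4f18, which inactivates leukotrienes in mouse neutrophils, read 93.3 and 80.7 in IKKa floxed and 56.4 and 65.6 in wild type lungs (0.42 ± 0.13 SE, adjusted p = 0.221). Of 8 measured neutrophil markers 4 fell below the filter, and of the 4 tested 0 passed, with a median of -0.19. The summed intensities of the 8 were 980 and 575 in IKKa floxed and 798 and 1049 in wild type lungs. The part of these markers in the Cyp4f18 values was not tested.

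The highest family 4 signal, Cyp4b1, read 6352 and 5991 in IKKa floxed lungs and 5417 and 5505 in wild type lungs. The groups did not overlap (log2 difference 0.18, interval 0.93-fold to 1.37-fold, limma adjusted p = 0.565), and with quantile normalization the difference was 0.00. Cyp4f16 read 77.4 and 89.5 in IKKa floxed and 64.3 and 67.6 in wild type lungs, while its other probe set pointed down (0.28 and -0.34 on the log2 scale). Cyp4v3, a fatty acid hydroxylase, read 609 and 560 in IKKa floxed and 585 and 521 in wild type lungs, and its probe sets also disagreed (0.08 and -0.20). Cyp4f15 read 105 and 97.4 in IKKa floxed and 108 and 130 in wild type lungs, and was the 1 tested family 4 gene below 0 (-0.20). Cyp4f13 read 40.7 and 40.7 in IKKa floxed and 42.9 and 37.9 in wild type lungs, with a log2 difference of 0.01.

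Of 12 genes in sterol and steroid families 5 were tested, 2 above 0 and 3 below, and none passed. The grouping went by family number, so the 12 include the vitamin D enzyme Cyp27b1. Cyp7b1, which hydroxylates oxysterols, read 69.0 and 87.9 in IKKa floxed lungs and 110 and 114 in wild type lungs (log2 difference -0.45 ± 0.14 SE, limma adjusted p = 0.214). Its other probe sets stood at -0.19 and, at low signal, 0.38. Cyp39a1, another oxysterol hydroxylase, read 355 and 354 in IKKa floxed and 458 and 410 in wild type lungs (-0.28 ± 0.12 SE, adjusted p = 0.375). Neither gene overlapped between the groups.

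Cyp27a1, the mitochondrial sterol hydroxylase that is abundant in macrophages, read 240 and 249 in IKKa floxed lungs and 209 and 184 in wild type lungs (0.30 ± 0.13 SE, limma adjusted p = 0.350). Its other probe set stood at -0.04, at low signal, and with the mean of all probe sets the difference was 0.13. Alveolar macrophage markers had a median log2 difference of 0.18, with 7 of 11 tested above 0 and 4 below. Of the 11, 1 passed, Marco (limma adjusted p = 0.00218), against 0.997% of all genes called higher. The summed intensities of these markers, which Chil3 dominated, were 11629 and 11612 in IKKa floxed and 8847 and 9145 in wild type lungs. Chil3 alone read 7224 and 7193 in IKKa floxed and 4742 and 5076 in wild type lungs, and did not pass (limma adjusted p = 0.0893). The part of these markers in the Cyp27a1 values was not tested. Cyp46a1, known from neurons for cholesterol removal, read 30.2 and 28.1 in IKKa floxed and 23.6 and 15 in wild type lungs (0.37 ± 0.15 SE). It was tested only through its IKKa floxed arrays, since the wild type mean of 19.3 lay below the filter.

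Cyp21a1, the adrenal steroid hydroxylase, read 6.15 and 23.7 in IKKa floxed lungs and 37.2 and 33.2 in wild type lungs. It was tested only through its wild type arrays, since the IKKa floxed mean of 14.9 lay below the filter, and its other probe set stood at -0.05. The log2 difference was -0.79 ± 0.26 SE (limma adjusted p = 0.235), which became -1.21 without IKKa floxed replicate 2 (adjusted p = 0.0142) and -0.37 without IKKa floxed replicate 1. With a pseudocount of 1 it was -1.44 and with 64 it was -0.34. A near-identical pseudogene lies beside it, so the source of this signal is uncertain. Markers of adrenal and gonad steroid cells gave low signal, with 5 of 6 measured below the filter and summed intensities of 66 and 94.9 in IKKa floxed and 76 and 64.8 in wild type lungs.

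Among the remaining families, Cyp26b1, which breaks down retinoic acid, read 76.3 and 111 in IKKa floxed lungs and 74.5 and 87.1 in wild type lungs, with overlap. Its partner Cyp26a1 and the vitamin D enzymes Cyp24a1 and Cyp27b1 averaged 8.7, 6.41 and 5.61 and were not tested. Cyp20a1 read 590 and 763 in IKKa floxed and 894 and 756 in wild type lungs (log2 difference -0.29 ± 0.16 SE, and -0.47 to -0.11 with 1 array left out). Cyp51, the sterol demethylase of cholesterol synthesis, read 222 and 223 in IKKa floxed and 224 and 233 in wild type lungs (interval -0.31 to 0.24 on the log2 scale). Ptgis, the prostacyclin synthase, read 1359 and 1382 in IKKa floxed and 1282 and 1296 in wild type lungs (0.09), and Tbxas1, the thromboxane synthase, read 96.7 and 86.7 in IKKa floxed and 67.4 and 78.6 in wild type lungs (0.28). None of these 3 passed.

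On the probe sets used, the genes that serve P450 enzymes differed little, with 1 exception. Of 13 tested genes for redox partners and haem synthesis 1 was called higher, against 0.997% of all genes. The other 12 did not pass and lay between -0.14 and 0.08 on the log2 scale. They include Cyb5a (cytochrome b5) at -0.03 and Fdx1 (ferredoxin) at 0.07. Other probe sets of these 12 genes ran further, from -0.90 for Ppox to 0.37 for Pgrmc2. Por, the P450 reductase, is not analysed here. Alad, aminolevulinate dehydratase of haem synthesis, read 940 and 938 in IKKa floxed lungs and 358 and 388 in wild type lungs. It rose 2.46-fold (log2 difference 1.30 ± 0.12 SE, limma adjusted p = 0.00519), and its 2 probe sets stood at 0.58 and 1.30. It passed under all 14 alternatives, with differences from 0.94 to 1.35. Fech, ferrochelatase, which completes haem, stood at -0.14 ± 0.13 SE.

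Of 23 tested genes for conjugation and other xenobiotic steps, 2 fell, against 0.730% of all genes, and 21 did not pass (median log2 difference -0.03). Sult1d1, a sulfotransferase, read 305 and 241 in IKKa floxed lungs and 511 and 634 in wild type lungs (-1.03 ± 0.17 SE, limma adjusted p = 0.0387). Adh7, a retinol and ethanol dehydrogenase of epithelia, read 57.7 and 51.1 in IKKa floxed and 107 and 127 in wild type lungs (-0.91 ± 0.14 SE, adjusted p = 0.0266). The other probe sets stood at -0.95 for Sult1d1 and -0.81 for Adh7. Both lost the call without IKKa floxed replicate 2 (adjusted p = 0.0721 for Sult1d1 and 0.0612 for Adh7) and without wild type replicate 2 (0.111 and 0.113). They also lost it with a pseudocount of 1 (0.102 and 0.0623) and with no filter on low genes (0.144 and 0.11). The same held with the replicate number as a block (0.0729 and 0.0554). Over the alternatives the log2 difference ran from -1.19 to -0.87 for Sult1d1 and from -1.09 to -0.61 for Adh7.

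**Figure D4:**
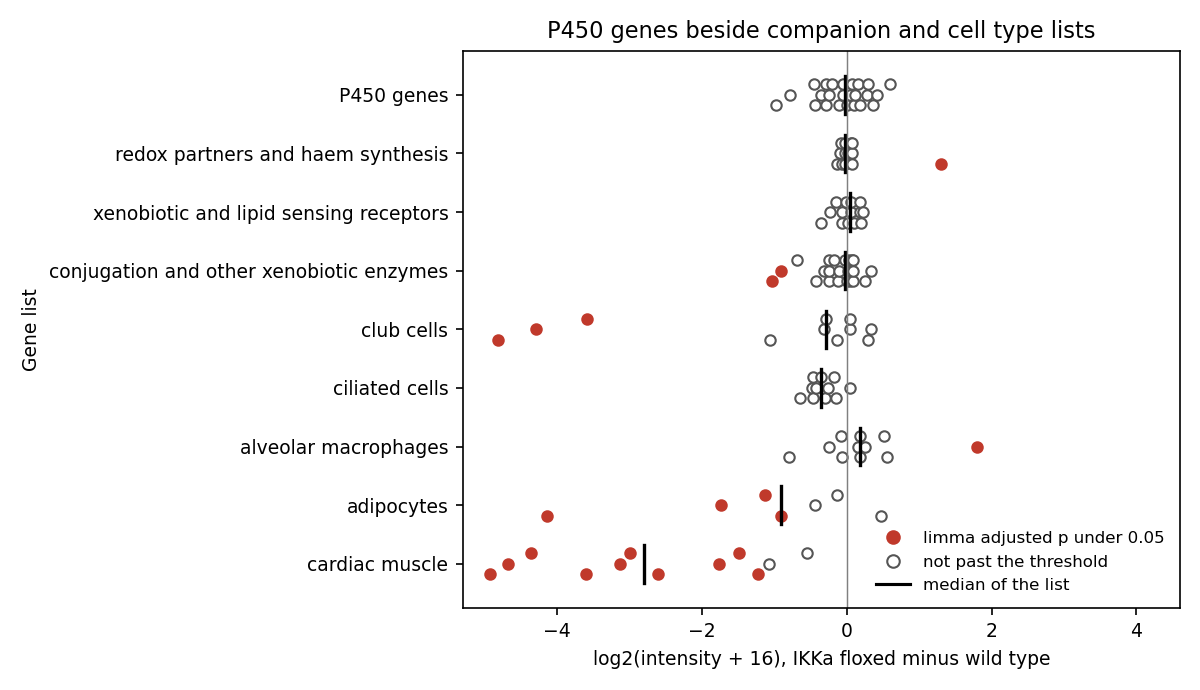
Difference in log2(intensity + 16), IKKa floxed minus wild type, of each tested gene in the P450 family, in lists of genes that work with P450 enzymes and in cell type marker lists. Filled points passed the limma threshold and bars give list medians, which were -0.02 for P450 genes, -0.28 for club cells, -0.91 for adipocytes and -2.80 for cardiac muscle.

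Cyp2f2 can be set beside the other genes of club cells, which did not move together. Scgb1a1, the main club cell secretory protein, read 19539 and 16203 in IKKa floxed lungs and 14552 and 14417 in wild type lungs (limma adjusted p = 0.399). Scgb3a1, another secretoglobin, read 79.8 and 236 in IKKa floxed and 3158 and 2906 in wild type lungs (adjusted p = 0.00519). Of 11 tested club cell markers, 3 fell, against 0.730% of all genes. The other 8 did not pass, and the median log2 difference of the 11 was -0.28. The summed intensity of the 12 measured was 64889 and 55035 in IKKa floxed and 59582 and 60826 in wild type lungs. Of 12 tested cardiac muscle markers 10 fell, against the same 0.730% of all genes. The other 2 did not pass, and the median of the 12 was -2.80. In RNA of a whole sample, fewer cells of a type in the tissue collected and less RNA per cell cannot be told apart.

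Among the 48 P450 genes below the filter, a fit that kept all genes gave 4 with p under 0.05 before adjustment, and the share over all genes in that fit was 11.2%. None passed after adjustment by limma (adjusted p = 0.201 or more). These 4 were named after their values were seen. Cyp11a1, which starts steroid synthesis from cholesterol, read 16.5 and 17.1 in IKKa floxed lungs and 2.63 and 6.62 in wild type lungs. Cyp4a12a, a fatty acid hydroxylase with male-biased expression in mouse liver and kidney, read 1.62 and 0.704 in IKKa floxed and 9.73 and 17.4 in wild type lungs. Cyp2j11 read 4.67 and 0.847 in IKKa floxed and 12.2 and 14.5 in wild type lungs. Cyp2c68 read 0.552 and 2.03 in IKKa floxed and 13.3 and 7.51 in wild type lungs. All of these values lie below an intensity of 20.4, and the other probe sets of Cyp11a1 stood at 0.04 and -0.32.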

How the data were processed

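The arrays were single-colour Affymetrix arrays of biotinylated cRNA, per the labels' protocols. The deposited values are linear intensities, 1 for each probe set on each array, from Affymetrix Expression Console, per the submitters' processing notes. Neither its version nor its algorithm is given in the sources used here. Of 45101 probe sets, 34958 had 1 gene symbol, and control probe sets were left out. The probe set with the highest mean of log2(intensity + 16) stood for its gene. Array medians differed by 0.0646 at most on that scale, so the deposited scaling was kept. limma 3.58.1 in R 4.3.3 (lmFit, eBayes, two-sided) compared the groups with Benjamini-Hochberg adjustment over all 12735 genes tested, with 2 residual and 4.78 prior degrees of freedom. The procedure was tested on simulated data. The number of arrays limits the precision. The P450 genes, lists and alternatives were chosen with earlier results of these data known. Named genes were called genes, the 15 highest signals, the 10 largest absolute moderated t, the largest of each family and list, and a few fixed genes, with the other tested P450 genes and markers given for completeness. Chromosomes and promoter sequences came from RefSeq (GRCm38.p6), and no build is named for the array values.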

Additional observations from a re-analysis of the deposited data

How the results depend on the processing

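The results were recomputed under 14 alternatives, of which the choice of probe set and filter by the linear mean was added after seeing the data. The cause of each change below was not tested. All genes called numbered 220, against 104 with a pseudocount of 1, 359 with 64, 69 with no filter, 384 with an intensity trend and robust prior, and 146 to 248 with 1 array left out. P450 genes called lower numbered 0, against 1 with a pseudocount of 64, 1 with the 50th percentile filter, 1 with the trend and robust prior, and 0 to 2 with 1 array left out. P450 genes called higher stayed at 0 under all 14. Of the genes that work with P450 enzymes 3 were called, against 1 with a pseudocount of 1, 1 with no filter, 5 with the trend and robust prior, and 1 to 3 with 1 array left out. The median of the P450 genes was -0.02, against -0.07 with the 50th percentile filter and -0.03 to 0.04 with 1 array left out (0.04 without wild type replicate 1).

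Among 425 results for single genes 397 kept their direction and side of the threshold, 10 lost a call, 5 gained one and 13 turned direction. With quantile normalization Cyp2f2 was -0.12 and Cyp2b10 -0.09. With the mean of all probe sets Cyp2b10 was -0.01, Cyp4v3 -0.06, Cyp4f16 -0.03 and Arnt -0.03. With the probe sets that can share transcripts left out, Cyp2b10 was -0.02 and Cyp4v3 -0.20. With 1 array left out, Cyp2f2 ran from -0.07 to 0.31, Cyp2s1 from -0.20 to 0.01, Cyp4v3 from 0.00 to 0.16, Cyp1b1 from -0.12 to 0.03 and Cyp26b1 from -0.07 to 0.39. A lone array was there assumed to vary like the other group.

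Across all genes tested, the deviations of same-numbered arrays had a correlation of -0.000334. Genes are not replicates, so this value cannot settle whether the replicate number pairs samples. With that number as a replicate block, 188 of all genes, 0 P450 genes and 1 gene that works with P450 enzymes (Alad) were called. With 2 arrays a group and signal near the filter, differences such as those of Cyp1a1 and Cyp21a1 have wide intervals.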

Other observations

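Several P450 genes are known to differ between male and female mouse liver, and their values in lung were grouped here after they had been seen. Of the male-biased genes, Cyp7b1 and Cyp4a12a were lower in direction in IKKa floxed lungs, as given above. Cyp2d9, also male-biased, read 16.1 and 14 in IKKa floxed and 20.7 and 12 in wild type lungs, with overlap. Of the female-biased genes, Cyp2b9 read 29.9 and 4.92 in IKKa floxed and 28.1 and 23.3 in wild type lungs, and Cyp2b13 read 12.2 and 22.2 in IKKa floxed and 12.1 and 14.8 in wild type lungs. Cyp3a16 read 0.542 and 6.3 in IKKa floxed and 2.1 and 3.58 in wild type lungs, and Cyp3a44 read 12.7 and 7.2 in IKKa floxed and 7.24 and 1.75 in wild type lungs. The groups overlapped for each of these 4 genes, and all lay below the filter on mean level. Cyp4a12a had first been named for its small unadjusted p. The genes given here are a selection, so they do not show how sex-biased P450 genes as a whole behaved.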
